A study of Mus musculus with 34 samples.

Results

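The genes described here are 47 mouse genes of mitosis and of the G2/M transition, taken by symbol with no limit on their measured values, and all 47 were among the 14107 genes of the count table. They were measured by RNA sequencing in the lines NaJa-D, -F and -G, which are colorectal cancer cell lines of the C57BL/6N strain, each isolated from the peritoneal lavage of 1 mouse that had received colon organoids of a single donor. In the study NaJa-D is the epithelial-like line, NaJa-F the intermediate line and NaJa-G the mesenchymal-like line. All 12 groups shared 1 genotype, with the BrafV600E/+, Trp53R172H and APCdel alleles and a VillinCreERT2 transgene, in which the villin promoter drives an inducible Cre recombinase in intestinal epithelium. Each line was given encorafenib at 0.5 µM, a drug that blocks mutant BRAF, or DMSO as the vehicle, and cells were harvested after 1 day or 5 days. Medium with drug or solvent was added at the start and, for the later time point, was renewed on the way. There were 34 libraries, 3 in 10 of the groups and 2 each in NaJa-F with encorafenib at day 5 and in NaJa-G with DMSO at day 5. The comparisons address how the 3 lines differ in their response to the drug. Nothing in the labels says that libraries of a group came from separate cultures, so the p-values measure the spread between these libraries, which may be technical.

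A cell enters mitosis when CDK1, bound to a B-type cyclin, is switched on by CDC25 phosphatases and by the Aurora A and Polo-like kinases. Chromosomes then attach to the spindle through the kinetochore, the spindle checkpoint holds back the anaphase promoting complex until every chromosome is attached, and cutting of cohesin by separase followed by cytokinesis ends the division. Most of the genes for these proteins are transcribed together late in the cell cycle. In resting cells they are held off by the DREAM complex, in which the MuvB core sits with an E2F factor and a pocket protein, and in cycling cells MuvB works with B-MYB (Mybl2) and FOXM1 to switch them on. MuvB touches DNA at the cell cycle genes homology region (CHR), and NF-Y binds CCAAT boxes close by. Such genes are therefore widely used as a readout of how many cells in a culture are dividing, and in bulk RNA fewer cells in G2 and M cannot be told apart from less of these RNAs per cell.

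The promoters of these genes are shown because the genes moved together. The RefSeq table of GRCm38.p6 promoters, which run from 250 bases before to 50 bases after the start of a gene, held a window for 39 of the 47 genes. It held none for Ccna2, Cdc25c, Aurkb, Incenp, Spc24, Kif20a, Tpx2 and Foxm1. A CHR, searched as TTTGAA or TTCGAA on either strand, was present in 31 of the 39 windows (79.5%) and in 19.4% of the windows of all 27025 genes of that table. A CCAAT box on either strand was present in 28 of the 39 (71.8%) and in 37.9% of all windows. Both were present in 26 of the 39 (66.7%) and in 7.7% of all windows, and 19 of the 39 (48.7%) had CCAAT at 2 or more places against 12.2% of all. Top2a, a DNA topoisomerase, Cdc20, an activator of the anaphase promoting complex, and Kif11, a spindle motor, had both motifs. Ccnb2, a B-type cyclin, and Hmmr, a spindle assembly factor, also had both motifs in their windows. Their CHR matches lay outside the stretch shown, which held only their CCAAT boxes. Mybl2 had neither motif. Each stretch below runs 5′ to 3′ on the strand of the gene and lies within 120 bases before the start, leaving out bases that overlap an annotated exon, and capitals mark each CHR and CCAAT, or their reverse complements TTCAAA and ATTGG.
Top2a, chr11:99024190-99024309, minus strand: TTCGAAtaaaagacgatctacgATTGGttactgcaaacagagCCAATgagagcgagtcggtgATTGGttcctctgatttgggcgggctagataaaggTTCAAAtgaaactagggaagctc
Cdc20, chr4:118437353-118437463, minus strand: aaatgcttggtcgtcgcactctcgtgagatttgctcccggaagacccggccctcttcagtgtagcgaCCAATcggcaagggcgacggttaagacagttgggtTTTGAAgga
Kif11, chr19:37376262-37376381, plus strand: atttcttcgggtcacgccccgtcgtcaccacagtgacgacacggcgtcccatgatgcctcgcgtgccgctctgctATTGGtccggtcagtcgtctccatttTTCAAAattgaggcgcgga
Ccnb2, chr9:70421555-70421674, minus strand: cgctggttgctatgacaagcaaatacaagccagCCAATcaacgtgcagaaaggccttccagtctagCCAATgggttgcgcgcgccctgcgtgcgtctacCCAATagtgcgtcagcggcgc
Hmmr, chr11:40733438-40733557, minus strand: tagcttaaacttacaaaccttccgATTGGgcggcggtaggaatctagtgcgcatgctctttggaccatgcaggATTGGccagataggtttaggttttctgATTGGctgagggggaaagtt
Mybl2, chr2:163054515-163054634, plus strand: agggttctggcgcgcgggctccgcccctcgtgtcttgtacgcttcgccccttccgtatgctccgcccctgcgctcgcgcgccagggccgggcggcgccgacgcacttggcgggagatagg
Neither motif was found in the whole windows of Pttg1, Mybl2, Birc5, Mad2l1, Nuf2 and Nusap1. The Pttg1 window (43425932 to 43426231) lay wholly inside that gene as annotated by GENCODE (43420250 to 43426251, minus strand). The Mad2l1 window ended before the GENCODE start of its gene. Bases just before the GENCODE starts of Pttg1 and Mad2l1 were thus not searched. A match is a run of letters and not a measured binding site, and no binding was measured here.

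Total counts were between 46007050 and 80121299 per library, and the lowest count of any of the 47 genes in any library was 342. The 47 genes together took between 0.404% and 0.921% of the counts of a library. A pair of libraries touched the results below. The one titled NaJa-D DMSO day 1 replicate 3 has NaJa-G in its cell line field and was kept under its title, and its group had fibroblast marker sums of 1.31 to 1.43 CPM (counts scaled to a common library total, after TMM) where the NaJa-G group of the same treatment and day had 54.6 to 74.9 CPM. NaJa-D encorafenib day 1 replicate 3 stood farthest from a replicate of its own group, with a chi-square per gene of 86.6 against replicate 1, in a range that began at 3.32 over the 32 pairs of replicates. Counts without each are given beside the day 1 responses of NaJa-D.

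Levels are given as CPM scaled with TMM factors, and as CPM per kilobase of exon where genes are compared with each other. Averaged over the 12 groups, the highest levels per kilobase were those of Mki67, the Ki-67 proliferation antigen that coats mitotic chromosomes, at 74.6 CPM per kilobase, of Top2a at 68 and of Cdc20 at 61.4. The lowest were those of Kif15, a spindle kinesin, at 5.15 CPM per kilobase, of Pttg1, which encodes securin, at 6.31, and of the phosphatase gene Cdc25c at 6.46. Another gene overlaps 11 of the 47, in 10 cases on the opposite strand, and since the use of strand in counting is not given in the sources used here, reads of both genes cannot be told apart. These pairs were Ccna2 with Exosc9, Cdc25b with Spef1, Cdc25c with Gm3550, Bub3 with Fgfr2, Cdc20 with Elovl1, Cdca8 with 9930104L06Rik, Kif4 with Pdzd11, Kif20a with Cdc23, Prc1 with Rccd1, Nusap1 with Oip5 and, on the same strand, Foxm1 with Tex52.

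The summed level of the 47 genes was lower with encorafenib in every line and on both days. In NaJa-G the sum was 8106 to 8326 CPM in DMSO at day 1 and 4175 to 4247 CPM in encorafenib, and at day 5 it was 8126 and 8697 CPM in DMSO and 5655 to 5761 CPM in encorafenib. In NaJa-D it was 7783 to 8125 CPM in DMSO and 5143 to 5350 CPM in encorafenib at day 1, and 6417 to 6687 CPM and 4435 to 4695 CPM at day 5. NaJa-F had the narrowest gap, with 7645 to 7879 CPM in DMSO and 6555 to 6737 CPM in encorafenib at day 1, and with 7548 to 7616 CPM in DMSO against 6680 and 7267 CPM in encorafenib at day 5. The encorafenib libraries lay below the DMSO libraries of their line and day in all 6 comparisons. With 3 or fewer libraries a group no test was made of the sum.

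**Figure D1:**
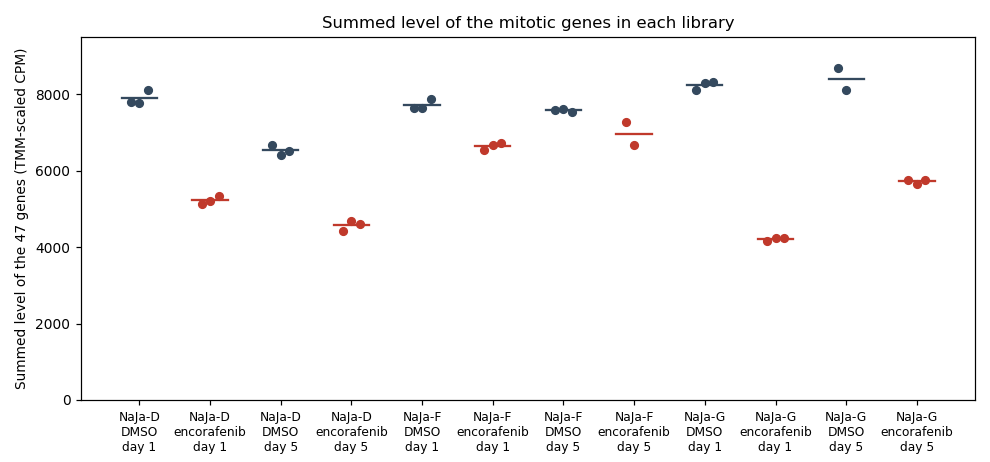
Summed level of the 47 genes in each of the 34 libraries, in CPM scaled with TMM factors, by line, treatment and day; points are libraries (dark, DMSO; red, encorafenib) and bars are group means. In all 6 pairs of groups the encorafenib points lie below the DMSO points, with the widest gap in NaJa-G at day 1 and the narrowest in NaJa-F at day 5.

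Each gene was then compared between encorafenib and DMSO with limma, using the spread over all 12 groups, and was called where its p, adjusted by Benjamini-Hochberg across the 14107 genes, lay below 0.01; a log2 FC is the encorafenib level minus the DMSO level on the log2 scale. NaJa-G at day 1 had the lowest values. Of the 47 genes 46 fell and 1 rose, where 28.7% of all genes were called lower and 35.3% higher. The median log2 FC was -0.95 for the 47 genes and 0.04 for all genes, and in 46 of them every encorafenib library lay below every DMSO library, which held for 33.5% of all genes. At day 5 again 46 fell and 1 rose in NaJa-G, against 24.7% of all genes called lower and 28.5% higher, with a median of -0.53, an all-gene median of 0.01 and 46 genes without overlap (35.4% of all genes). On both days the gene that rose was Pttg1. Without DMSO day 5 replicate 1, 1 of the 2 DMSO libraries of that day, 40 of the 47 genes were called at day 5.

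In NaJa-D 43 of the 47 genes fell at day 1 and none rose, where 21.2% of all genes were called lower and 23.7% higher. The median log2 FC was -0.55 against 0.04 for all genes, and 44 genes had every encorafenib library below every DMSO library (26.1% of all genes). Without the library whose cell line field differs from its title 43 fell, with a median of -0.58, and without encorafenib replicate 3 the number was 42, with a median of -0.60. The 4 genes not called were Kif15 (log2 FC -0.25, SE 0.113), Kif11 (-0.23, SE 0.0918), Cdc25b (-0.15, SE 0.0759) and Pttg1 (0.14, SE 0.0971). At day 5, 44 genes fell and Pttg1 rose, against 14.7% of all genes called lower and 18.3% higher, the median was -0.44 against 0.01 for all genes, and 42 genes did not overlap (24.7% of all genes). Bub3 (-0.13, SE 0.0619) and Ccnb2 (-0.11, SE 0.0498) were not called at that time. The weakest falls were those of Spc25 (-0.38), Foxm1 (-0.32) and Bub3 (-0.30) at day 1 and those of Cdca8 (-0.26), Cdca3 (-0.24) and Cdc20 (-0.22) at day 5, when Top2a (-0.75) was the second lowest gene after Mki67 (-0.84). Cdca3 lost its call when any of 4 of the 6 libraries was left out, at adjusted p between 0.011 and 0.025.

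NaJa-F showed the smallest differences. At day 1, 21 of the 47 genes fell and none rose, against 12% of all genes called lower and 17.5% higher, with a median log2 FC of -0.20 and an all-gene median of -0.02. In 44 genes every encorafenib library was nonetheless below every DMSO library, a pattern of 29.1% of all genes. The lowest values were those of Espl1 (-0.54), Kif15 (-0.46) and Cenpa (-0.40) and the weakest calls those of Bub1b, Kif4 and Tpx2 (-0.19 each), of which Kif4 lost its call without DMSO replicate 2 or encorafenib replicate 1 (-0.18 and adjusted p 0.012 in both cases). The 26 genes that were not called ran from Mki67 at -0.29 (SE 0.101) to Pttg1 at 0.20 (SE 0.0777), and Nusap1, a microtubule bundling protein, was the other one above 0 at 0.13 (SE 0.0552). At day 5, 12 genes fell and none rose, against 8.50% of all genes called lower and 9.70% higher, the median was -0.11 against 0.00 for all genes, and 25 genes did not overlap (27.3% of all genes). The 12 that fell were Ccnb1, Bub1b, Bub3, Espl1, Aurkb, Birc5, Incenp, Kif20a, Kif23, Kif2c, Top2a and Cdca3. The 35 others ran from -0.23 for Mybl2 (SE 0.0671) to 0.08 for Ube2c (SE 0.105), and without encorafenib replicate 2 only 7 genes were called.

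The 10 genes that fell in all 6 comparisons were Ccnb1, Bub1b, Espl1, Aurkb, Birc5, Incenp, Kif20a, Kif23, Kif2c and Top2a. For 7 of them, Ccnb1, Bub1b, Espl1, Aurkb, Incenp, Kif23 and Top2a, the call in NaJa-F at day 5 was lost with at least 1 of its 5 libraries left out, at a highest adjusted p of 0.012 (Espl1) to 0.19 (Top2a), with Kif23 at -0.19 and adjusted p 0.055 without encorafenib replicate 2. Birc5, Kif20a and Kif2c were called in each comparison with any single library of it left out, as were the 7 in the other 5 comparisons. A further 11 fell in 5, 22 fell in 4 and 3 fell in 3 of them, the last being Ccnb2, Cdc25b and Kif11. Pttg1 fell in 0 of the 6 and rose in 3. The share of all 14107 genes that fell in as many comparisons was not counted.

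**Figure D2:**
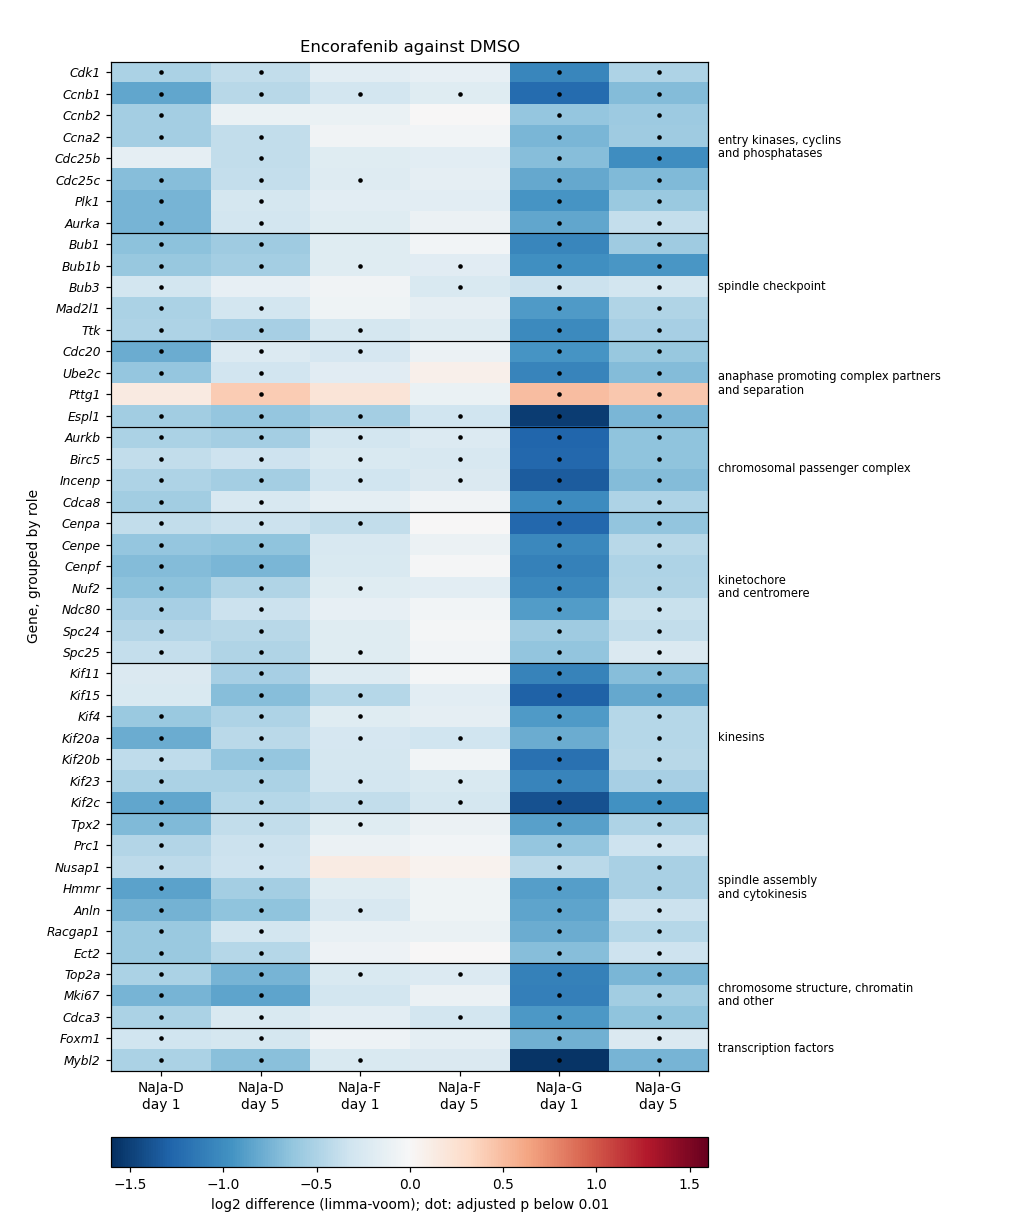
The log2 difference between encorafenib and DMSO (blue, lower in encorafenib; red, higher) for each of the 47 genes in rows, grouped by role, and for each line and day in columns; a dot marks an adjusted p below 0.01 (limma). Dots fill the NaJa-G columns, 12 remain in NaJa-F at day 5, and Pttg1 is the row with red cells in NaJa-D and NaJa-G.

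Among the kinases, cyclins and phosphatases of mitotic entry, 8 of 8 genes fell in NaJa-G on each day, 7 of 8 in NaJa-D on each day, and 2 and 1 of 8 in NaJa-F at day 1 and day 5. As background for the role counts here and below, encorafenib lowered 28.7% (1 day) and 24.7% (5 days) of all NaJa-G genes. Those shares were 21.2% and 14.7% for NaJa-D, and 12% and 8.50% for NaJa-F. The 1 of 8 entry genes called in NaJa-F after 5 days was close to its share. No role count was tested against these shares. Ccnb1, which encodes cyclin B1, was among the lowest genes of NaJa-D at day 1. It was at 176, 169 and 175 CPM in the DMSO libraries of that line and day and at 92.8, 96.4 and 104 CPM in encorafenib (log2 FC -0.83, SE 0.0483, adjusted p 4.3e-14). At day 5 it was at 131, 144 and 147 CPM in DMSO and at 97.5, 105 and 106 CPM in encorafenib (-0.45, SE 0.0484, adjusted p 1e-08). The groups did not overlap on either day. In NaJa-G, Ccnb1 went from 244, 240 and 238 CPM to 102, 100 and 106 CPM at day 1 (-1.23, SE 0.0494, adjusted p 1.2e-18), and from 234 and 229 CPM to 147, 140 and 140 CPM at day 5 (-0.70, SE 0.0555, adjusted p 9.4e-12). For NaJa-F the values were 206, 202 and 200 CPM against 161, 168 and 170 CPM at day 1 (-0.29, SE 0.0495, adjusted p 3.2e-05), and 189, 192 and 190 CPM against 175 and 157 CPM at day 5 (-0.20, SE 0.0549, adjusted p 0.0062). The day 5 call in NaJa-F was lost when any of 4 of its 5 libraries was left out, with the weakest value without encorafenib replicate 2 (-0.14, adjusted p 0.13).

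Cdk1, the kinase that cyclin B activates, was at 262, 251 and 254 CPM in NaJa-G with DMSO at day 1 and at 125, 123 and 125 CPM with encorafenib, below every library of the other groups (log2 FC -1.04, SE 0.0553, adjusted p 6.7e-16). It also fell in NaJa-G at day 5 (-0.49, SE 0.062) and in NaJa-D (-0.51, SE 0.0541, at day 1 and -0.40, SE 0.0543, at day 5). In NaJa-F its libraries were at 245, 244 and 246 CPM against 209, 222 and 223 CPM at day 1, without overlap, and the difference did not pass the threshold (-0.17, SE 0.0559, adjusted p 0.015). Plk1, the Polo-like kinase, fell in NaJa-D (-0.74 and -0.28) and NaJa-G (-0.95 and -0.59) on day 1 and day 5, and was not called in NaJa-F (-0.17 on both days, SE 0.0866 and 0.0957). The day 5 call of Plk1 in NaJa-D (adjusted p 0.008) was lost when any of 5 of the 6 libraries was left out. Cdc25b, a phosphatase that activates CDK1 and that overlaps Spef1, was the lowest gene of NaJa-G at day 5, at 166 and 193 CPM in DMSO and 89.8, 88.5 and 89.1 CPM in encorafenib (-1.0, SE 0.0847, adjusted p 3.5e-11), with -0.68 (SE 0.0753) at day 1. Cdc25c fell in NaJa-D and NaJa-G on both days and in NaJa-F at day 1, with values from -0.82 in NaJa-G at day 1 to -0.21 in NaJa-F at day 1.

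Of the 5 spindle checkpoint genes, 5 fell in NaJa-G on each day, 5 and 4 in NaJa-D at day 1 and day 5, and 2 and 2 in NaJa-F. Bub1b, the checkpoint kinase-like protein BUBR1, was at 123, 127 and 126 CPM in NaJa-G with DMSO at day 1 and at 61.7, 65.3 and 63.6 CPM with encorafenib (log2 FC -0.98, SE 0.0378, adjusted p 4.7e-19). Its day 5 difference in that line was close to that of day 1, at 140 and 150 CPM against 76.8, 75.6 and 75.8 CPM (-0.93, SE 0.0421, adjusted p 4.9e-17). It fell in NaJa-D (-0.61 and -0.54) and in NaJa-F (-0.19 and -0.18) as well, where the day 5 call was lost without encorafenib replicate 2 (-0.14, adjusted p 0.049). Bub1, Ttk and Mad2l1 fell in NaJa-G on day 1, with values between -1.04 and -0.91, and in NaJa-D on that day, with values between -0.66 and -0.49. Bub3, the WD-repeat partner of both BUB proteins, was at 149, 135 and 137 CPM in NaJa-G with DMSO at day 1 and at 114, 108 and 108 CPM with encorafenib, which was the weakest fall of that comparison (-0.35, SE 0.0623, adjusted p 1.3e-05). In NaJa-D at day 1 it was at 116, 108 and 110 CPM in DMSO and 85.7, 87.1 and 100 CPM in encorafenib (-0.30, SE 0.0619, adjusted p 0.00021). NaJa-F at day 5 was the one comparison where Bub3 was among the called genes while Bub1, Ttk and Mad2l1 were not, at 108, 108 and 106 CPM against 88.1 and 92.8 CPM (-0.25, SE 0.0691, adjusted p 0.0079). That call was lost with each of its 5 libraries left out, at adjusted p between 0.013 and 0.085.

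Among the partners of the anaphase promoting complex and the genes of chromatid separation, the separase gene fell in all 6 comparisons and the securin gene rose in 3. Espl1 encodes separase, the protease that cuts cohesin. In NaJa-G at day 1 it was at 99.8, 115 and 115 CPM in DMSO and at 37.9, 41.1 and 35.7 CPM in encorafenib (log2 FC -1.52, SE 0.0664, adjusted p 8e-18). In NaJa-F it was the lowest gene at day 1, at 107, 109 and 120 CPM against 78.1, 76.1 and 76.4 CPM (-0.54, SE 0.0639, adjusted p 7.8e-08), and was at 117, 119 and 112 CPM against 92.3 and 93.4 CPM at day 5 (-0.32, SE 0.0714, adjusted p 0.00098). In none of these did the libraries overlap, though the day 5 call in NaJa-F was lost without encorafenib replicate 1 (-0.32, adjusted p 0.012). It also fell in NaJa-D (-0.56, SE 0.0639, at day 1 and -0.62, SE 0.0641, at day 5) and, for NaJa-G, at day 5 (-0.73, SE 0.0716).

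Pttg1 encodes securin, the inhibitor and chaperone of separase, and was present at a low level of 8.3 to 18.2 CPM. It rose in NaJa-G at day 1, from 10.2, 11.6 and 11.7 CPM in DMSO to 16.6, 14.9 and 15.5 CPM in encorafenib (log2 FC 0.49, SE 0.0768, adjusted p 1.8e-06). At day 5 in that line it was at 11.4 and 14.4 CPM in DMSO and at 18.2, 17.1 and 16.8 CPM in encorafenib (0.43, SE 0.0835, adjusted p 7.1e-05). The day 5 call was lost without DMSO replicate 1 (0.27, adjusted p 0.013). In NaJa-D the values were 8.71, 8.49 and 8.3 CPM against 9.62, 9.66 and 8.82 CPM at day 1, which was not called, and 9.41, 11.5 and 11.1 CPM against 13.5, 14.3 and 14.2 CPM at day 5, where it rose (0.41, SE 0.0826, adjusted p 0.00018). NaJa-F had 10.9, 11.7 and 12.6 CPM in DMSO and 14.3, 13.3 and 12.9 CPM in encorafenib at day 1 (0.20, SE 0.0777, adjusted p 0.043), and 13.5, 14 and 13.6 CPM against 12.4 and 13.1 CPM at day 5 (-0.11, SE 0.088, adjusted p 0.39). The encorafenib libraries were thus the higher ones without overlap in 5 comparisons and the lower ones in NaJa-F at day 5.

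Cdc20, which overlaps Elovl1, fell from 139, 146 and 135 CPM to 73.8, 78.1 and 88.6 CPM in NaJa-D at day 1 (log2 FC -0.80, SE 0.0685, adjusted p 9.6e-11). Its day 5 difference there was among the weakest calls (-0.22, SE 0.0684, adjusted p 0.0093) and was lost when any of 5 of the 6 libraries was left out. It fell in NaJa-G (-0.94 at day 1 and -0.61 at day 5) and in NaJa-F at day 1 (-0.27), and was not called in NaJa-F at day 5 (-0.09, SE 0.0765). The day 1 call in NaJa-F was lost without DMSO replicate 2 (-0.26, adjusted p 0.01) or encorafenib replicate 3 (-0.26, adjusted p 0.011). Ube2c, the ubiquitin conjugating enzyme that works with the complex, fell in NaJa-D and NaJa-G on both days, from -1.06 (SE 0.0944) in NaJa-G at day 1 to -0.31 (SE 0.0928) in NaJa-D at day 5.

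The 4 genes of the chromosomal passenger complex, which corrects attachments of chromosomes to the spindle, fell in NaJa-D and NaJa-G on both days, and 3 of the 4 fell in NaJa-F on both days. Aurkb, the Aurora B kinase of the complex, was at 109, 109 and 106 CPM in NaJa-G with DMSO at day 1 and at 44.1, 46.4 and 43.9 CPM with encorafenib (log2 FC -1.27, SE 0.0533, adjusted p 3.1e-18). In NaJa-D it was at 91.6, 89.9 and 87.2 CPM against 63.2, 62.1 and 63.6 CPM (-0.51, SE 0.0526, adjusted p 4.3e-09), and in NaJa-F at 101, 98.3 and 105 CPM against 82.2, 82.6 and 84.4 CPM (-0.29, SE 0.0518, adjusted p 5.7e-05). The encorafenib libraries were below the DMSO libraries in each. The scaffold gene Incenp and the survivin gene Birc5 had log2 FCs of -1.33 and -1.26 in NaJa-G at day 1, and of -0.50 and -0.39 in NaJa-D. In NaJa-F at day 5 the Aurkb call (-0.22, adjusted p 0.0041) was lost without encorafenib replicate 1 (-0.18, adjusted p 0.088), DMSO replicate 1 (-0.23, adjusted p 0.012) or DMSO replicate 3 (-0.24, adjusted p 0.01), and with scaling by library size alone or these 2 groups alone (adjusted p 0.014 in both). The Incenp call there was lost without encorafenib replicate 1 as well (-0.20, adjusted p 0.043). Cdca8, which encodes borealin, was the member not called in NaJa-F (-0.16, SE 0.0551, and -0.06, SE 0.0615).

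All 7 kinetochore and centromere genes fell in NaJa-D and in NaJa-G on both days, 3 of the 7 fell in NaJa-F at day 1, and 0 of the 7 at day 5. Cenpa, the histone variant that marks the centromere, was at 133, 155 and 159 CPM in NaJa-G with DMSO at day 1 and at 62.9, 63.7 and 59.6 CPM with encorafenib (log2 FC -1.26, SE 0.0863, adjusted p 1.9e-13). In NaJa-F it was at 137, 136 and 168 CPM against 108, 111 and 112 CPM at day 1 (-0.40, SE 0.0855, adjusted p 0.0004), and at 137, 131 and 135 CPM against 128 and 142 CPM at day 5, where the groups overlapped (0.00, SE 0.0954). Ndc80, whose protein binds spindle microtubules together with those of Nuf2, Spc24 and Spc25, was at 45.1, 47.2 and 46.7 CPM in NaJa-G with DMSO and at 23.8, 25 and 26.1 CPM with encorafenib (-0.89, SE 0.0638, adjusted p 4.6e-13). The 4 genes of that complex fell together in NaJa-G at day 1 with values between -1.03 (Nuf2) and -0.57 (Spc24). At day 5 Spc25 had one of the weakest falls in NaJa-G (-0.23, SE 0.0546). Cenpe and Cenpf, large kinetochore proteins of late G2 and mitosis, fell in NaJa-D on both days, with values between -0.73 and -0.62.

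Of the 7 mitotic kinesins, 7 fell in NaJa-G on each day, 5 and 7 in NaJa-D at day 1 and day 5, and 5 and 3 in NaJa-F. Kif2c, a kinesin that takes apart microtubule ends, was at 110, 110 and 112 CPM in NaJa-D with DMSO at day 1 and at 60.8, 63.3 and 62.6 CPM with encorafenib (log2 FC -0.83, SE 0.0467, adjusted p 2e-14). In NaJa-G the values were 93.3, 95.1 and 99.6 CPM against 36.9, 36.6 and 35.9 CPM at day 1 (-1.40, SE 0.0482, adjusted p 4.4e-20), and 97.5 and 106 CPM against 54.8, 51 and 50.2 CPM at day 5 (-0.97, SE 0.0521, adjusted p 1.9e-15). Replicates were tight and the groups did not overlap. Kif20a, a kinesin of the central spindle that overlaps Cdc23, fell in NaJa-D (-0.79, SE 0.0527) and in NaJa-G (-0.80, SE 0.0532) at day 1, and in NaJa-F at day 1 (-0.27, SE 0.0533) and day 5 (-0.32, SE 0.0592). Kif11 and Kif15, both motors of the bipolar spindle, were not called in NaJa-D at day 1, fell there at day 5 (-0.53 and -0.68), and fell in NaJa-G at day 1 (-1.07, SE 0.093, and -1.30, SE 0.115). Kif15 was the second lowest gene in NaJa-F at day 1 (-0.46, SE 0.11, adjusted p 0.0014), a call that was lost without DMSO replicate 3 (-0.35, adjusted p 0.021).

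For the genes of spindle assembly and cytokinesis, 7 of 7 fell in NaJa-D and in NaJa-G on both days, 2 of 7 in NaJa-F at day 1 and 0 of 7 at day 5. Hmmr was the lowest gene of NaJa-D at day 1, at 174, 185 and 195 CPM in DMSO and at 95.7, 103 and 105 CPM in encorafenib (log2 FC -0.86, SE 0.0597, adjusted p 1.4e-12). In NaJa-G it fell from 134, 135 and 137 CPM to 68.4, 75.3 and 77.5 CPM (-0.88, SE 0.0601, adjusted p 1.8e-13). Tpx2, which activates Aurora A on the spindle, was at 234, 233 and 239 CPM against 135, 140 and 157 CPM in NaJa-D at day 1 (-0.71, SE 0.0438) and at 251, 247 and 253 CPM against 136, 135 and 140 CPM in NaJa-G (-0.87, SE 0.0445). Nusap1, which overlaps Oip5, had the second weakest fall of NaJa-G at day 1 (-0.43, SE 0.0562). Anln, Racgap1, Ect2 and Prc1, which build and position the contractile ring or the central spindle, fell at day 1, with values between -0.85 and -0.62 in NaJa-G and between -0.76 and -0.47 in NaJa-D.

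Mki67, Top2a and Cdca3 were placed in none of these groups. Mki67 in NaJa-D was at 1129, 1249 and 1414 CPM in DMSO and at 766, 783 and 720 CPM in encorafenib at day 1 (log2 FC -0.74, SE 0.102, adjusted p 6.4e-07), and at 1017, 838 and 797 CPM against 484, 528 and 467 CPM at day 5, where it was the lowest gene (-0.84, SE 0.0998, adjusted p 7.6e-08). In NaJa-G it was at 722, 877 and 876 CPM against 358, 402 and 390 CPM at day 1 (-1.10, SE 0.0998), and at 1063 and 767 CPM against 589, 621 and 639 CPM at day 5 (-0.56, SE 0.114, adjusted p 0.00013). That last call was lost without DMSO replicate 1 (-0.32, adjusted p 0.035). Top2a fell in all 6 comparisons, from -1.08 (SE 0.0528) in NaJa-G at day 1 to -0.22 (SE 0.0597) in NaJa-F at day 5, and the latter call was lost without encorafenib replicate 2 (-0.12, adjusted p 0.19), DMSO replicate 1 (-0.23, adjusted p 0.011) or DMSO replicate 2 (-0.23, adjusted p 0.013). Cdca3, a trigger of mitotic entry, fell in NaJa-F at day 5 (-0.29, SE 0.0685), a call lost without encorafenib replicate 1 (-0.30, adjusted p 0.016) or replicate 2 (-0.32, adjusted p 0.011), and was not called at day 1 (-0.17, SE 0.0614).

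The transcription factor genes of the programme are Mybl2 and Foxm1. Mybl2 had the lowest value of the 47 genes over the 6 comparisons, at 123, 112 and 113 CPM in NaJa-G with DMSO at day 1 and at 38.3, 41.2 and 38 CPM with encorafenib (log2 FC -1.57, SE 0.0624, adjusted p 9.3e-19). At day 5 it was at 72.9 and 82.5 CPM in DMSO and at 46.4, 47.3 and 45.1 CPM in encorafenib (-0.75, SE 0.068, adjusted p 1.8e-10). The DMSO level itself was therefore lower at day 5. In NaJa-D Mybl2 was at 112, 109 and 109 CPM against 74.8, 73.8 and 83.6 CPM at day 1 (-0.51, SE 0.0603) and at 94.9, 87.8 and 96.8 CPM against 53.8, 58.4 and 63.4 CPM at day 5 (-0.67, SE 0.0607). In NaJa-F it was at 136, 138 and 136 CPM against 113, 117 and 114 CPM at day 1 (-0.25, SE 0.0604, adjusted p 0.0015) and was not called at day 5 (-0.23, SE 0.0671, adjusted p 0.011). Foxm1, which overlaps Tex52 on the same strand, fell less: from 312, 292 and 294 CPM to 181, 176 and 170 CPM in NaJa-G at day 1 (-0.77, SE 0.0426, adjusted p 1.7e-15), from 256 and 260 CPM to 221, 218 and 220 CPM at day 5 (-0.23, SE 0.0478, adjusted p 0.00014), and from 281, 269 and 271 CPM to 215, 213 and 230 CPM in NaJa-D at day 1 (-0.32, SE 0.042, adjusted p 2.9e-07). It was not called in NaJa-F (-0.08, SE 0.0429, and -0.16, SE 0.0473).

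**Figure D3:**
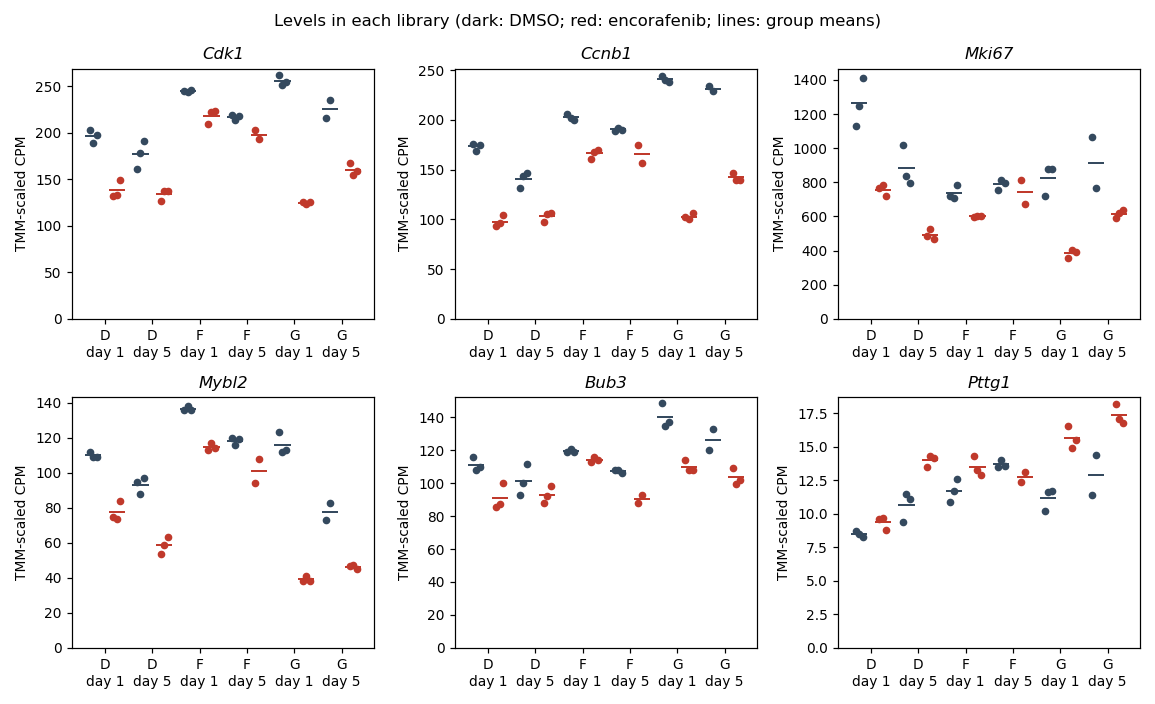
Levels of 6 genes in every library, in CPM scaled with TMM factors and with each axis starting at 0, for each line and day; dark points are DMSO, red points are encorafenib and bars are group means. Cdk1, Ccnb1, Mki67 and Mybl2 are lowest with encorafenib in NaJa-G at day 1 among the groups of that line, Bub3 differs less between treatments, and Pttg1 is higher with encorafenib except in NaJa-F at day 5.

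Whether the response differed between lines was tested as the difference of the encorafenib log2 FCs. At day 1 the fall was deeper in NaJa-G than in NaJa-D for 28 of the 47 genes and shallower for none, where 16.2% of all genes had a lower and 20.2% a higher response in NaJa-G, and the median difference was -0.38 against 0.03 for all genes. Without the NaJa-D library whose cell line field differs the number was 25, and without NaJa-D encorafenib replicate 3 it was 26. With scaling by library size alone the all-gene median moved by -0.13 and 36 genes were called. Mybl2 differed most (-1.06, SE 0.0867, adjusted p 9.4e-11), then Kif15 (-1.04, SE 0.162) and Espl1 (-0.96, SE 0.0922). The roles were unequal in this difference. All 4 genes of the chromosomal passenger complex responded more in NaJa-G, with a median of -0.80, as did 6 of the 7 kinesins, with a median of -0.56, and both transcription factors. None of the 7 genes of spindle assembly and cytokinesis was called, with a median of -0.10, and values near 0 were those of Hmmr and Nusap1 (-0.01 each, SE 0.0847 and 0.083), Kif20a (-0.02, SE 0.0749), Bub3 (-0.06, SE 0.0879) and Ccnb2 (-0.07, SE 0.0711). Of the genes followed by name, Plk1 (-0.21), Cdc20 (-0.14), Tpx2 (-0.16) and Mki67 (-0.37) were not called, and Cdk1 (-0.53), Ccnb1 (-0.40), Aurkb (-0.76), Bub1b (-0.37), Cenpa (-0.86), Ndc80 (-0.36) and Foxm1 (-0.45) were.

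Against NaJa-F, 46 of the 47 genes fell more in NaJa-G at day 1 and none fell less, where 14.3% of all genes were lower and 19.2% higher, with a median difference of -0.76 against 0.07. Mybl2 was again first (-1.32, SE 0.0868, adjusted p 1.4e-12), followed by Birc5 (-1.02) and Incenp (-1.01), and Pttg1 was the gene not called (0.30, SE 0.109). The weakest called differences were those of Bub3 (-0.29, SE 0.0879, adjusted p 0.0084), Spc24 (-0.37) and Spc25 (-0.42). Between NaJa-F and NaJa-D, 26 genes fell less in NaJa-F at day 1 and none more, where 4.49% of all genes were called higher and 4.30% lower, with a median of 0.40 against 0.00. The widest of these gaps were those of Hmmr (0.68, SE 0.0847, adjusted p 3.3e-06), Plk1 (0.57, SE 0.122), Aurka and Nusap1 (0.55 each). Without NaJa-D encorafenib replicate 3 the number was 31, and without the NaJa-D library whose cell line field differs it was 26. Espl1 (0.02, SE 0.0904), Kif11 (0.02, SE 0.13), Cenpa (0.00 after rounding, SE 0.121) and Kif15 (-0.20, SE 0.158) were among the 21 not called. These 3 comparisons share libraries with each other in pairs.

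At day 5 NaJa-G fell more than NaJa-D for 9 genes and less for 1, where 7.82% of all genes were lower and 14.1% higher, with a median difference of -0.09 against 0.00. The lowest were Cdc25b (-0.61, SE 0.113, adjusted p 0.00011), Kif2c (-0.51) and Ccnb2 (-0.47), and the one on the other side was Anln (0.30, SE 0.083, adjusted p 0.0066). Without NaJa-G DMSO replicate 3 the calls were 6 lower and 0 higher, and with scaling by library size alone they were 13 lower and 0 higher. NaJa-G fell more than NaJa-F for 33 genes, with Pttg1 called the other way (0.54, SE 0.121, adjusted p 0.00093), where 7.95% of all genes were lower and 16.2% higher, and the median was -0.41 against 0.02. Its lowest values were Cdc25b (-0.83), Ube2c (-0.78) and Bub1b (-0.74). NaJa-F fell less than NaJa-D for 19 genes, and for Pttg1 the difference was negative (-0.52, SE 0.121, adjusted p 0.0032), where 4.08% of all genes were higher and 4.77% lower, with a median of 0.31 against -0.01. Mki67 (0.74, SE 0.151), Cenpf (0.71) and Anln (0.57) led, and without NaJa-F encorafenib replicate 1 this count was 9, Pttg1 no longer among them.

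The response was also compared between days within a line. In NaJa-G it was weaker at day 5 for 32 genes and stronger for none, where 15.5% of all genes had a higher and 16.2% a lower difference, with a median of 0.43 against 0.02. The widest changes were those of Mybl2 (0.82, SE 0.0923, adjusted p 3.4e-08), Espl1 (0.78, SE 0.0976) and Kif20b (0.76, SE 0.161). All 4 passenger complex genes were among the 32, with a median of 0.62, as were 6 of the 7 kinetochore genes and both transcription factors. Bub1b (0.05, SE 0.0566), Ccnb2 (0.05, SE 0.0739), Bub3 (0.07, SE 0.0933) and Nusap1 (-0.09, SE 0.0834) were not, and Cdc25b had the lowest difference (-0.32, SE 0.113, adjusted p 0.022).

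In NaJa-D the day 5 response was weaker for 9 genes and stronger for none, where 2.76% of all genes were called higher and 4.54% lower, with a median of 0.11 against 0.00 after rounding. These were Cdc20 (0.58, SE 0.0968, adjusted p 0.00013), Aurka, Ccnb2, Ccnb1, Kif2c, Kif20a, Hmmr, Tpx2 and Racgap1. The number was 15, of which 2 were negative, without encorafenib day 1 replicate 3, and 6 without DMSO day 1 replicate 3. In NaJa-F 0 genes were called in either direction, where 0.929% of all genes were higher and 4.95% lower. There limma gave an unadjusted p below 0.05 for 5 of the 47, the median was 0.08 against 0.01, and DESeq2 called 1. The widest difference was that of Cenpa (0.40, SE 0.128, adjusted p 0.042). The day 5 log2 FC was less negative than that of day 1 for 44 genes in NaJa-G, 38 in NaJa-F and 32 in NaJa-D. These counts take no account of the threshold, and the share of all genes with such an order was not counted.

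**Figure D4:**
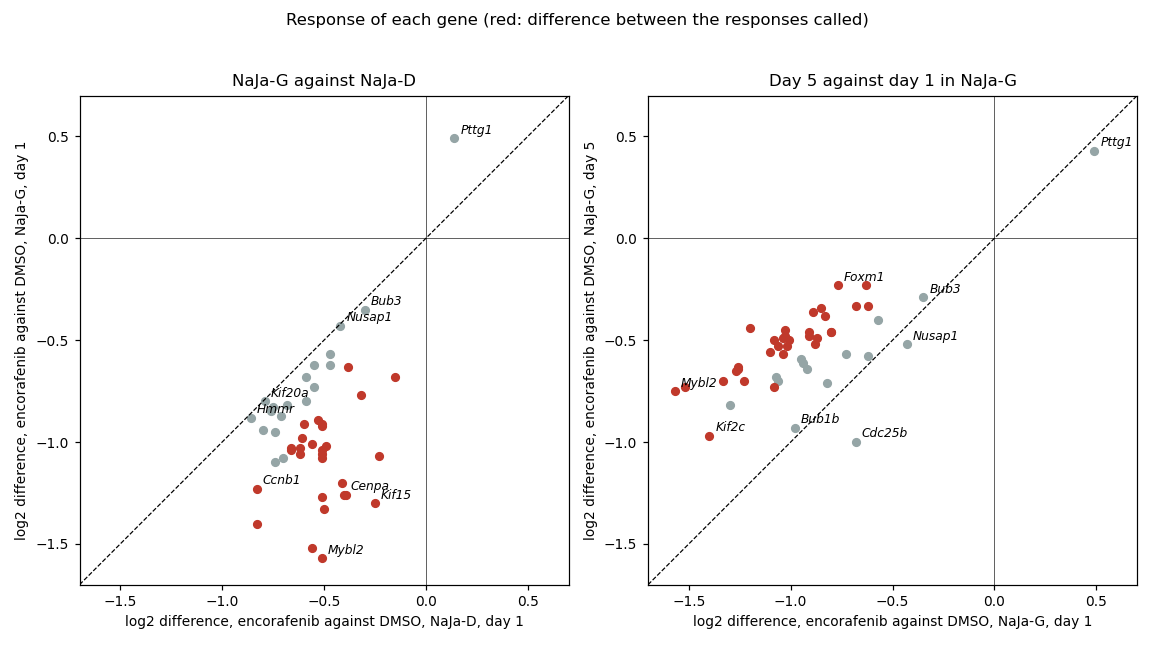
Each point is 1 of the 47 genes; the left panel plots the log2 difference between encorafenib and DMSO at day 1 in NaJa-G against that in NaJa-D, the right panel the difference at day 5 against day 1 in NaJa-G, and the dashed line marks equal values. Red points are genes whose difference between the responses was called (28 on the left, 32 on the right); Hmmr and Kif20a lie near the line on the left with Mybl2 far below it, and Cdc25b and Pttg1 lie below the line on the right.

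In DMSO the lines differed before any drug. With the mean of both days, NaJa-G had 33 of the 47 genes higher than NaJa-D and 4 lower, where 33.3% of all genes were higher and 34.1% lower, with a median of 0.29 against 0.01 for all genes. Ube2c was at 112, 105 and 100 CPM in NaJa-D and at 217, 190 and 189 CPM in NaJa-G at day 1, and it differed most over both days (0.79, SE 0.0706, adjusted p 4.9e-11), ahead of Nusap1 (0.78) and Cdc25b (0.77). The 4 genes that were lower in NaJa-G were Anln (-0.43), Mki67 (-0.29), Hmmr (-0.25) and Ndc80 (-0.23). NaJa-F had 27 genes higher than NaJa-D and 5 lower, where 32.6% of all genes were higher and 29.0% lower, with a median of 0.16 against 0.02. Ect2, the exchange factor that starts the cleavage furrow, was first (0.64, SE 0.0428), then Ccna2, cyclin A2, at 0.61, and the 5 lower genes were Mki67 (-0.47), Anln (-0.28), Cdc25c (-0.25), Kif2c (-0.21) and Hmmr (-0.20). Anln was at 545, 572 and 588 CPM in NaJa-D, 420, 417 and 413 CPM in NaJa-F and 344, 361 and 356 CPM in NaJa-G at day 1, and the 3 groups did not overlap. With scaling by library size alone, the all-gene median moved by 0.12 in both comparisons with NaJa-D, and the median of the 47 genes became 0.40 for NaJa-G and 0.28 for NaJa-F.

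Between NaJa-G and NaJa-F, 20 genes were higher and 5 lower in NaJa-G, where 25.2% of all genes were higher and 29.2% lower, with a median of 0.13 against -0.01. Cdc25b (0.59, SE 0.0566), Cdca3 (0.37), Racgap1 and Bub1b (0.31 each) were the highest. Mybl2 was the lowest (-0.42, SE 0.0452, adjusted p 3e-09), followed by Spc24 (-0.31), Cdca8 (-0.28), Ndc80 (-0.15) and Anln (-0.14). With the day 1 libraries alone 15 genes were called, 11 of them higher. Cdk1 (0.06, SE 0.042), Kif20a (0.07, SE 0.0402), Cenpa (0.03, SE 0.0644) and Aurkb (0.07, SE 0.0389) were among the 22 not called in this comparison.

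The number of these genes called between day 1 and day 5 in DMSO depended on the scaling and was highest in NaJa-D. There 25 fell from day 1 to day 5 and 1 rose, where 15.3% of all genes fell and 13.7% rose, with a median of -0.19 against 0.01, but with scaling by library size alone the all-gene median moved by 0.18, the median of the 47 genes was -0.01, and 13 fell and 2 rose. Plk1 was at 183, 181 and 174 CPM at day 1 and at 122, 113 and 122 CPM at day 5 (-0.59, SE 0.0856, adjusted p 3.3e-06), and Cdca8, Nuf2 and Mki67 followed at -0.52 each. The gene that rose was Cdc25b, from 76.9, 83.8 and 78.9 CPM to 99.5, 103 and 106 CPM (0.37, SE 0.0756, adjusted p 0.00029). Without the library whose cell line field differs 24 fell and 1 rose. In NaJa-F 7 genes fell and none rose, where 7.01% of all genes fell and 9.73% rose, with a median of -0.08 against 0.00. These were Cdca8 (-0.35), Cdc20 (-0.33), Spc24 (-0.30), Aurka (-0.29), Birc5 (-0.21), Prc1 (-0.19) and Spc25 (-0.18), and with scaling by library size alone 2 genes fell and 1 rose, while with a GC correction 9 fell and 2 rose.

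In NaJa-G 5 genes fell and 5 rose over the same days, where 16.8% of all genes fell and 17.2% rose, with a median of 0.02 against 0.00. Both counts were below the shares of all genes. Mybl2 fell most, from 123, 112 and 113 CPM to 72.9 and 82.5 CPM (-0.58, SE 0.0673, adjusted p 6.5e-08), and Birc5 (-0.35), Cdca8 (-0.35), Incenp (-0.22) and Foxm1 (-0.21) fell with it. Nusap1 rose most (0.42, SE 0.0615, adjusted p 3.1e-06), then Cdc25b (0.41), Ccnb2 (0.30), Cdc25c (0.23) and Bub1b (0.20). With scaling by library size alone 4 fell and 9 rose, with a GC correction 9 fell and 4 rose, and with a fit of these 2 groups alone 1 fell and 1 rose. Cdc25b was above 0 in all 3 lines, and in NaJa-F it was not called (0.23, SE 0.0748, adjusted p 0.022). The DMSO libraries of these comparisons are also the controls of the encorafenib comparisons.

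**Figure D5:**
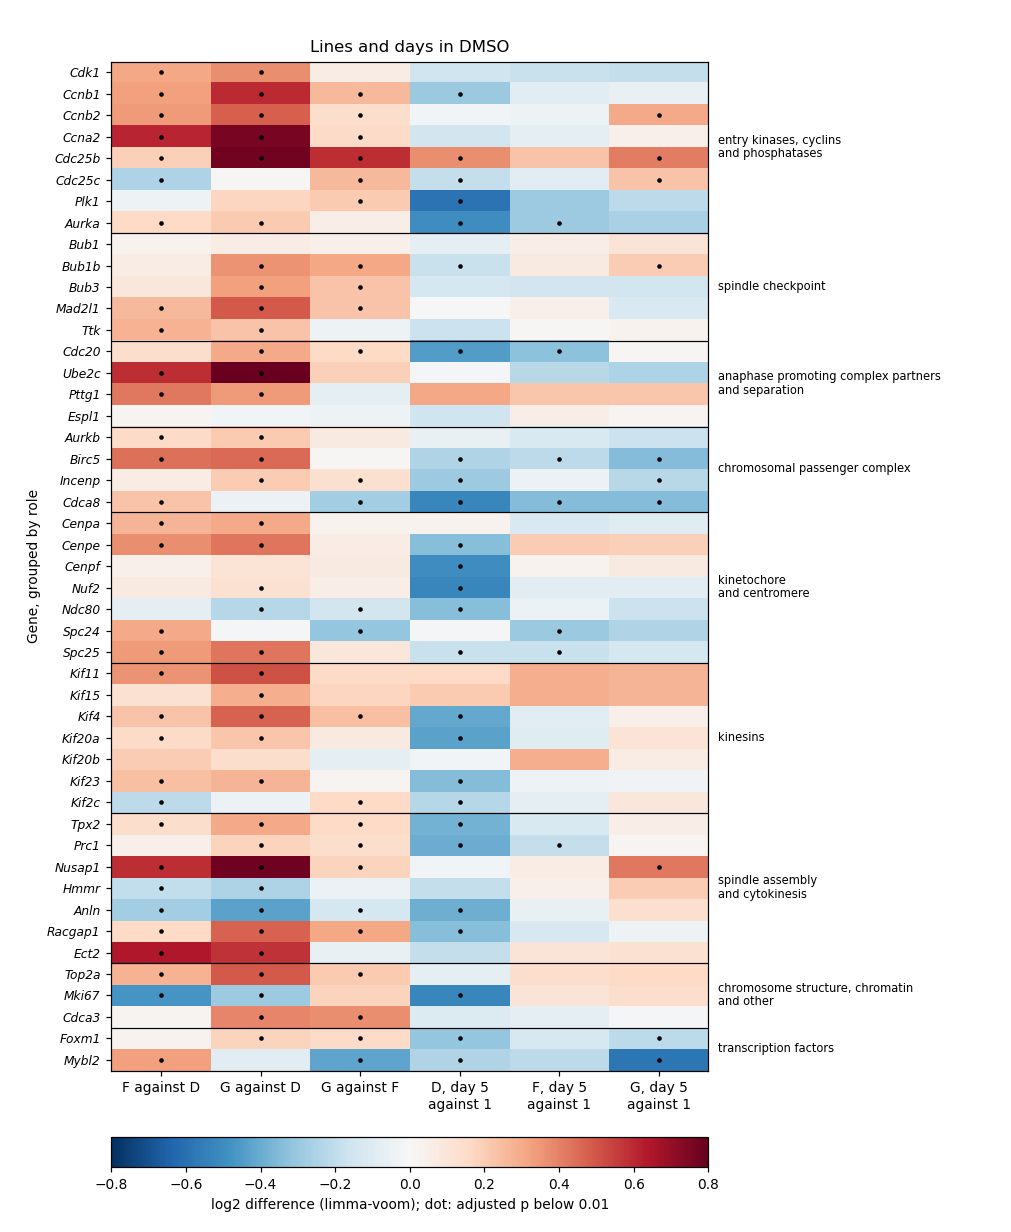
The log2 difference of each of the 47 genes in DMSO, between lines with the mean of both days in the 3 left columns and between day 5 and day 1 within a line in the 3 right columns; red is higher and blue lower in the first-named line or at day 5, and a dot marks an adjusted p below 0.01 (limma). Anln, Hmmr and Mki67 are blue against NaJa-D where most genes are red, and the NaJa-D time column holds 25 blue calls and 1 red call, that of Cdc25b.

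Other gene lists of the cell cycle were counted in the same fit. Of 50 further mitotic genes, 50 fell in NaJa-G at day 1 (median log2 FC -1.01) and 45 at day 5 (-0.49), 48 and 44 in NaJa-D (-0.53 and -0.42), and 28 and 6 in NaJa-F (-0.23 and -0.06), with none higher. Trip13, an ATPase that resets the checkpoint protein MAD2, was the lowest of them in NaJa-G at day 1 (-1.62, SE 0.0627) and Aspm, a spindle pole protein, in NaJa-D at day 1 (-0.82, SE 0.0804). Of 14 subunits of the anaphase promoting complex itself, 5 fell and 2 rose in NaJa-G at day 1, 3 fell and 1 rose at day 5, 4 fell and 0 rose in NaJa-D at day 1, 1 fell and 2 rose at day 5, and none was called by limma in NaJa-F. Of all genes, 28.7% fell and 35.3% rose in NaJa-G at day 1, 24.7% and 28.5% at day 5, 21.2% and 23.7% in NaJa-D at day 1, and 14.7% and 18.3% at day 5. The medians of the 14 subunits lay between -0.12 and 0.03. Of 30 DNA replication genes 29 fell in NaJa-G at day 1 (median -0.97) and 26 at day 5 (-0.64), 24 and 25 in NaJa-D (-0.42 and -0.45), and 17 and 10 in NaJa-F (-0.24 and -0.21), again with none higher. Encorafenib lowered 12% of all NaJa-F genes after 1 day and raised 17.5%. After 5 days it lowered 8.50% of them and raised 9.70%. The 6 of 50 further mitotic genes called there after 5 days were thus little above the share of all genes.

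Among 13 genes that regulate entry into or exit from mitosis the directions were mixed. The list held brakes and also genes that act the other way, such as the phosphatase gene Cdc25a. Gadd45a, a stress gene whose protein inhibits CDK1, rose in NaJa-D (0.64 at day 1, SE 0.0924, and 0.46 at day 5, SE 0.0617), in NaJa-F (0.39 and 0.49) and, at day 5, in NaJa-G (0.44). Sfn, which encodes 14-3-3 sigma, rose in NaJa-F (0.58 and 0.43), in NaJa-G (0.70 and 0.73) and in NaJa-D at day 5 (0.51). Cdkn1a, the p21 inhibitor of cyclin dependent kinases, rose in NaJa-D (0.45, SE 0.0711) and NaJa-G (0.55, SE 0.0653) at day 1 and fell in NaJa-G at day 5 (-0.82, SE 0.0816). Fbxo5, an inhibitor of the anaphase promoting complex, was the lowest of the list in NaJa-G at day 1 (-1.40, SE 0.0495), in NaJa-D at day 5 (-0.73) and in NaJa-F at day 1 (-0.46). In total 6 fell and 4 rose in NaJa-D at day 1, 4 and 3 at day 5, 2 and 2 in NaJa-F at day 1, 0 and 2 at day 5, 7 and 3 for NaJa-G at day 1, and 6 and 3 at day 5. Of all genes, 21.2% fell and 23.7% rose in NaJa-D at day 1, 14.7% and 18.3% at day 5, 12% and 17.5% in NaJa-F at day 1, 8.50% and 9.70% at day 5, 28.7% and 35.3% for NaJa-G at day 1, and 24.7% and 28.5% at day 5.

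Of 22 genes for subunits of DREAM, MuvB, E2F and NF-Y, 14 fell and 3 rose in NaJa-G at day 1, and 11 fell and 1 rose at day 5. The counts in NaJa-D were 8 lower and 2 higher at day 1 and 9 lower and 0 higher at day 5, and in NaJa-F 6 and 1 at day 1 and 4 and 0 at day 5. The shares of all genes were 28.7% lower and 35.3% higher in NaJa-G at day 1 and 24.7% and 28.5% at day 5, 21.2% and 23.7% then 14.7% and 18.3% in NaJa-D, and 12% and 17.5% then 8.50% and 9.70% in NaJa-F. E2f2, an activating E2F, had the lowest value of the list in 5 of the 6 comparisons, from -2.23 (SE 0.0943) in NaJa-G at day 1 to -0.48 (SE 0.103) in NaJa-F at day 5. In NaJa-D at day 1 it was at -0.53 (SE 0.069), and the MuvB subunit gene Lin9 was lower there (-0.61, SE 0.0534). The pocket protein gene Rb1 was higher at day 1 in NaJa-G (0.74, SE 0.078), NaJa-D (0.39) and NaJa-F (0.35), and Rbl2, which encodes a pocket protein of DREAM, was higher at day 1 in NaJa-D (0.34), and in NaJa-G at day 1 as well (0.78, SE 0.0462) and day 5 (0.16).

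Markers of other cell types were measured beside these genes. All 8 epithelial markers were present, and their summed level was 5606 to 6750 CPM in NaJa-D and 2610 to 4129 CPM in NaJa-G with DMSO, and higher with encorafenib in every line and day. Single markers went both ways, with log2 FCs from -0.66 to 1.01 in NaJa-D at day 1, from -2.10 to 0.66 at day 5, and from -2.78 to 1.07 in NaJa-G at day 5, where the medians of the 8 were 0.09, 0.05 and 0.06. Cdx2, an intestinal transcription factor, was at 8.92 to 8.93 CPM with DMSO and 1.14 to 1.45 CPM with encorafenib in NaJa-G at day 5, and Vil1, which encodes villin, at 13.2 to 14 CPM and 2.96 to 3.5 CPM in NaJa-D at day 5. The 4 fibroblast markers present were at 1.31 to 5.52 CPM in NaJa-D and NaJa-F. In NaJa-G their sum was 54.6 to 74.9 CPM with DMSO and 89.3 to 105 CPM with encorafenib at day 1, and 14.8 to 17.4 CPM and 102 to 118 CPM at day 5. The sum of the 3 mesothelial markers present was 497 to 1514 CPM in DMSO and 1002 to 3520 CPM in encorafenib. In every line and day the encorafenib libraries were the higher ones. Nearly all of this sum was a single gene, Msln, at 496 to 1512 CPM in DMSO and 998 to 3514 CPM in encorafenib. The other markers, Upk3b and Lrrn4, were at 6.4 CPM or less in every group. The 2 leukocyte markers present stayed between 3.64 and 10.2 CPM, higher with encorafenib, and Kdr, the endothelial marker present, was at 1.36 CPM or less. None of the markers present was at 0 in all libraries of any group. The other markers looked for were Thy1, Dpt, Wt1, Upk1b, Ptprc, Adgre1, Lyz2, Cd3e, Pecam1, Cdh5 and Tek, and none matched a row of the count table. Within each line and day the epithelial, fibroblast, mesothelial and leukocyte sums were thus higher with encorafenib, where the summed mitotic level was lower, and their part in the result was not tested. In NaJa-G with encorafenib the mitotic, fibroblast, mesothelial and leukocyte sums were higher at day 5 than at day 1. The epithelial sum of that line and treatment was lower at day 5 (3163 to 3365 CPM) than at day 1 (5113 to 5267 CPM).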

How the data were processed

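RNA was sequenced from 34 libraries of 3 mouse cell lines in 12 groups. The authors deposited raw counts per gene for 14107 Ensembl genes, with no normalization. The submitters' processing notes name Trimmomatic 0.39, STAR 2.5.2b and the GRCm38/mm10 genome, while the counting tool, its annotation and its strand setting are not given in the sources used here. In the study, genes with a low row sum were removed before limma with TMM scaling. Symbols came from GENCODE M21 and were matched for 14064 of the 14107 IDs, and promoters came from RefSeq. Total counts were 46007050 to 80121299 per library and TMM factors 0.876 to 1.07.

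Counts were fitted with limma 3.58.1 (voom) after TMM scaling with edgeR 4.0.16 in R 4.3.3, and the model held 12 group means. The threshold for a call was 0.01 on p-values adjusted by Benjamini-Hochberg across the 14107 genes, and the script was tested on simulated data. Alternatives were edgeR's quasi-likelihood test, DESeq2 1.42.0, limma-trend with a prior count of 3, other scalings, a filter at 2 log2 CPM, an adjusted p below 0.05, a GC correction, a replicate block, fits of the groups compared alone and leaving out each library in turn, which was also read gene by gene for the 10 genes lower in every encorafenib comparison, a choice made after seeing the data. No further filter on low counts was applied. For each comparison the text names the 3 lowest and the 3 weakest or highest genes called, those not called (a range where more than 10) and 14 genes chosen by role; other members were named after their values were seen. The members, gene lists and rules were chosen with earlier results of these data known. Genes with no matched symbol were kept in the fit.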

Additional observations from a re-analysis of the deposited data

Results flagged for a closer look

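Each of the following results is a difference between the encorafenib responses of 2 lines or 2 days, tested with limma over the libraries. At day 1 the response differed between NaJa-F and NaJa-D for 26 of the 47 genes, widest for Hmmr (0.68 on the log2 scale), between NaJa-G and NaJa-D for 28, widest for Mybl2 (-1.06), and between NaJa-G and NaJa-F for 46, widest for Mybl2 (-1.32). At day 5 the numbers were 20 between NaJa-F and NaJa-D, with Mki67 at 0.74, 10 between NaJa-G and NaJa-D, with Cdc25b at -0.61, and 34 between NaJa-G and NaJa-F, with Cdc25b at -0.83. Between days, 9 genes differed in NaJa-D, with Cdc20 at 0.58, and 32 in NaJa-G, with Mybl2 at 0.82. Of all genes, the day 1 response was lower in 4.30% and higher in 4.49% for NaJa-F against NaJa-D. For NaJa-G the shares were 16.2% and 20.2% against NaJa-D and 14.3% and 19.2% against NaJa-F. At day 5 they were, in the same order, 4.77% and 4.08%, 7.82% and 14.1%, and 7.95% and 16.2%. Between days they were 4.54% and 2.76% in NaJa-D and 16.2% and 15.5% in NaJa-G. Groups held 2 or 3 libraries, so no test for single outlying libraries was made.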

How the results depend on the processing

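Over 21 comparisons, the number of the 47 genes called was within 1.5 times in 201 of 216 results with another tool, scaling, filter, threshold, block or choice of samples. Of the others, an adjusted p below 0.05 gave 34 genes for encorafenib in NaJa-F at day 1, 18 and 20 for time in NaJa-F and NaJa-G, and 14 and 1 for the day difference of the response in NaJa-D and NaJa-F. Fitting only the groups compared gave 7 for encorafenib in NaJa-F at day 5, 13 and 2 for time in NaJa-F and NaJa-G, 4 for the response of NaJa-G against NaJa-D at day 5, and 2 for the day difference in NaJa-D. Scaling by library size alone gave 15 and 3 for time in NaJa-D and NaJa-F, a GC correction gave 11 for time in NaJa-F, day 1 libraries alone gave 15 for NaJa-G against NaJa-F, and DESeq2 gave 1 for the day difference in NaJa-F. With all libraries and settings as reported these counts were 21 and 12 for encorafenib in NaJa-F at day 1 and 5, 10, 7 and 26 for time in NaJa-G, NaJa-F and NaJa-D, 25 for NaJa-G against NaJa-F, 10 for the response of NaJa-G against NaJa-D at day 5, and 9 and 0 for the day difference in NaJa-D and NaJa-F. The cause was not tested. With single libraries left out, the counts ran from 7 (without NaJa-F encorafenib replicate 2) to 10 for encorafenib in NaJa-F at day 5, from 9 (without NaJa-F encorafenib replicate 1) to 22 for the response of NaJa-F against NaJa-D at day 5, from 6 (without NaJa-G DMSO replicate 3) to 10 for that of NaJa-G against NaJa-D at day 5, and from 6 to 15 (without NaJa-D encorafenib day 1 replicate 3) for the day difference in NaJa-D. For changes of sign, only genes chosen by the naming rules were followed through the settings. Most of the 35 genes not called in NaJa-F at day 5 were not among them. Of the genes followed, the values that changed sign were those of 4 genes not called in NaJa-F at day 5, which with single libraries left out ran from -0.22 to 0.02 for Cdc20, from -0.09 to 0.07 for Cenpa (below 0, also at -0.03 and -0.01, in 3 cases), from -0.17 to 0.05 for Ndc80 and from -0.24 to 0.03 for Mki67. No pairing of samples by replicate number was detected. Correlations of same-numbered encorafenib and DMSO libraries ran from -0.44 to 0.49 over 16 pairs, and 0 of 4 comparisons with 3 pairs had all of them over 0.1. At most 1 encorafenib library of a comparison correlated best with its own number. With 2 or 3 libraries a group, these correlations cannot exclude that same-numbered cultures were handled together. With the replicate block the counts were at day 1 and day 5, for encorafenib, 47 and 47 (NaJa-G), 43 and 43 (NaJa-D) and 21 and 10 (NaJa-F), and no count moved by over 1.5 times. The lowest count of any of the 47 genes in a library was 342 reads, for Pttg1, and the groups of 2 libraries (NaJa-F encorafenib and NaJa-G DMSO, both day 5) limit the precision of the day 5 results of those lines.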
